A study of Mus musculus with 5 samples.

Results

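Prg4, Has1, Has2, Vcan, Cd44 and Tnfaip6, 6 of the 31055 genes listed in the deposited matrices, encode lubricin and components of the hyaluronan matrix, and their levels are described here in cells of Prx1-derived skeletal muscle mesenchyme around a broken bone. The genes were picked by name, with levels of the same libraries already known, so the values below are a description and carry no test.

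Hyaluronan is a long, unsulfated sugar chain that synthases in the plasma membrane (Has1, Has2, Has3) extrude into the extracellular space, where it holds water and forms a pericellular coat. Versican (Vcan), a large chondroitin sulfate proteoglycan, binds the chain, and Tnfaip6 (TSG-6) is a secreted protein that transfers heavy chains of inter-alpha-inhibitor onto it and so crosslinks the coat. Cd44 is the main cell surface receptor of hyaluronan, and Prg4 encodes lubricin, a mucin-like glycoprotein that lubricates joint and tendon surfaces and can also bind CD44.

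The data are single-cell RNA sequencing (scRNAseq) of GFP+ cells sorted from hindlimb skeletal muscle of Prx1Cre;mTmG mice on a C57Bl/6 background. They form 5 droplet libraries, for which the study names a single kit, and whether all were made with it was not tested. In these mice Cre under the Prx1 promoter switches on GFP in cells that descend from the limb bud mesenchyme, so GFP marks a lineage and not a single cell type. The 5 conditions are uninjured muscle (d0), d3 and d5 after a non-stabilized tibial fracture (post-fracture), and d3 and d5 after polytrauma, in which the same fracture is combined with mechanical injury to the adjacent muscles (post-polytrauma). All animals fell in 1 age range, of either sex, and each library pooled 2 mice. With 1 library per condition, a difference between conditions cannot be told apart from a difference between mice or between libraries, no replicate check was possible, and intervals below are 95% intervals that cover counting error only.

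For a pair of libraries the deposited labels conflict with the cell numbers of the study. The library used here as d3 post-polytrauma is labelled d5 post-fracture, and the library used as d5 post-fracture is labelled d3 post-polytrauma. Conditions below follow the cell numbers, and the directions that change under the labels are given with the comparisons. The barcodes fall into separate sets as well. The d0 library and both d3 libraries shared 405 to 525 barcodes with each other, but each shared only 0 to 3 with either d5 library. A difference between d5 and earlier samples thus cannot be told apart from a difference between these sets. What separates the sets is not given in the sources used here. As labelled, the same split lies between both polytrauma libraries and the rest, and it is then the kind of injury that cannot be told apart from it. Of the 2001 barcodes of the d5 post-fracture library, 944 (47.2%) also occurred at d5 post-polytrauma, where they made up 6.92% of barcodes.

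Cells with 350 to 8000 detected genes, under 20% mitochondrial counts and at least 1000 unique molecular identifiers (UMIs, counted molecules) were retained, 29831 of 34439 barcodes. They numbered 4632 at d0, 5589 at d3 post-fracture, 6201 at d3 post-polytrauma, 1468 at d5 post-fracture and 11941 at d5 post-polytrauma. The median per cell ranged from 3640 UMIs at d0 to 34949 at d5 post-fracture. Levels are given as CPM, the UMIs of a gene added up over all retained cells, per 1000000 UMIs of all genes. Since each molecule was counted once at its 3′ end, levels of different genes were compared as UMIs, without a correction for length. In such sums, fewer cells of a type and less RNA per cell cannot be told apart. Markers of FAP/MP (fibro-adipogenic and mesenchymal progenitors) summed to between 933 and 2332 CPM, while the 5 myogenic markers summed to at most 3.72 CPM, with Pax7 at 0 in 3 libraries. The 7 hematopoietic markers summed to 14.3 to 100.9 CPM, with Itgam at 0 at d0. Leaving out cells with UMIs of at least 2 hematopoietic markers changed no count of members past a 2-fold difference.

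All 6 genes have positions in GENCODE M21 for GRCm38. Prg4 lies on the minus strand of chromosome 1 (150449412 to 150466165), Has1 on the minus strand of chromosome 17 (17843323 to 17855205), Has2 on the minus strand of chromosome 15 (56665627 to 56694539) and Vcan on the minus strand of chromosome 13 (89655312 to 89742509). Cd44 (102811141 to 102901665, minus strand) and Tnfaip6 (52038009 to 52056686, plus strand) both lie on chromosome 2. The antisense gene Has2os overlaps Has2 on the plus strand of chromosome 15 (56689944 to 56778399), and whether counting used strand is not given in the sources used here.

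The upstream sequences of a synthase, of versican and of Tnfaip6 are shown because Has1 and Tnfaip6 had their highest CPM at d0, while Vcan had its lowest there. They come from RefSeq windows of 300 bases (250 before to 50 after the RefSeq start, GRCm38.p6), which matched 4 of the 6 genes by symbol. Prg4 and Has2 had no window. Only bases upstream of both the RefSeq and the GENCODE start are printed, 5′ to 3′ on the strand of the gene, with letters in capitals where they match a searched motif on either strand.
Has1 (chr17:17855206-17855438, minus strand): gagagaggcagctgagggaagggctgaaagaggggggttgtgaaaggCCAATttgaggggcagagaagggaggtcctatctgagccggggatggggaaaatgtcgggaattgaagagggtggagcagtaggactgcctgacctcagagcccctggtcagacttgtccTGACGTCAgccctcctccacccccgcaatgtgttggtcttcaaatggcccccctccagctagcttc
Vcan (chr13:89742513-89742762, minus strand): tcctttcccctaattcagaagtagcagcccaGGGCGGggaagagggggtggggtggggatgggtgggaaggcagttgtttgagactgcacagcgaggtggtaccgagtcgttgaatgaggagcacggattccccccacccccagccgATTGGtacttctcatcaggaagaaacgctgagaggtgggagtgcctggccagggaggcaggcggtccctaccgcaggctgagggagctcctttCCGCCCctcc
Tnfaip6 (chr2:52037863-52038008, plus strand): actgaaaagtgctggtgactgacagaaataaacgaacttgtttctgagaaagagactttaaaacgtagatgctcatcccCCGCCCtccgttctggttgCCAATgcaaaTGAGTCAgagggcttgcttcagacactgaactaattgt
Searched on both strands were TATAAA (the TATA box), TGANTCA (the AP-1 element), TGACGTCA (the cyclic AMP response element), GGGCGG (the GC box), CCAAT (the CCAAT box) and GGAATG (the TEAD element), and no match overlapped another in the printed bases. Has1 held TGACGTCA at -83 to -76 from its RefSeq start, and CCAAT at -203 to -199. Vcan held GGGCGG at -219 to -214 and its reverse complement at -10 to -5, with CCAAT on the reverse strand at -103 to -99. Tnfaip6 held TGANTCA at -142 to -136, CCAAT at -152 to -148 and GGGCGG on the reverse strand at -171 to -166. Beyond its printed bases, its window also held CCAAT at -81 to -77 and GGAATG at -8 to -3, both on the reverse strand. Of 32851 windows of the same length, 1.79% held TGACGTCA, 7.81% held TGANTCA, 35.7% held GGGCGG and 37.4% held CCAAT. Cd44 held no match upstream of its start. No binding was measured in these samples, so a match is a property of the letters alone.

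Prg4 (lubricin) was detected at 138 CPM (133 to 144) at d0, 266 (263 to 269) at d3 post-fracture, 232 (229 to 235) at d3 post-polytrauma, 68.3 (66.1 to 70.6) at d5 post-fracture and 283 (281 to 286) at d5 post-polytrauma. The lowest and the highest levels were thus those of the pair of d5 libraries, and no interval overlapped that of a neighbour in the order. Relative to d0, Prg4 was 1.92-fold higher at d3 post-fracture and 1.67-fold higher at d3 post-polytrauma. Between d3 and d5 post-fracture it was 3.89-fold lower (3.76 to 4.03), and between d3 and d5 post-polytrauma 1.22-fold higher, a sign that turned relative to the median of all genes (given with the comparisons). At d5 it was 4.15-fold higher post-polytrauma than post-fracture (4.01 to 4.29). These d5 values rest on the library with conflicting labels. Under the labels, the 4.15-fold difference separates d5 from d3 post-polytrauma, and d5 post-polytrauma is 1.22-fold above d5 post-fracture. Without any barcode found in 2 libraries, the log2 ratio of d5 post-polytrauma over d5 post-fracture was 2.13 instead of 2.05. This alternative left out 869 of the 1468 retained cells at d5 post-fracture, and 342 of 11941 at d5 post-polytrauma.

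Has1, a hyaluronan synthase, was at 809 CPM (796 to 823) at d0, 256 (253 to 259) at d3 post-fracture, 233 (230 to 236) at d3 post-polytrauma, 286 (281 to 290) at d5 post-fracture and 149 (147 to 151) at d5 post-polytrauma. The uninjured library stood above all 4 injured libraries, and at d0 Has1 ranked 208 among 18198 detected genes. Has1 was 3.17-fold lower at d3 post-fracture than at d0 (3.1 to 3.23) and 3.47-fold lower at d3 post-polytrauma (3.40 to 3.54).

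Has2, the synthase that is essential in the embryonic heart, was at 34.7 CPM (32.0 to 37.6) at d0, 84.0 (82.2 to 85.8) at d3 post-fracture, 83.0 (81.2 to 84.7) at d3 post-polytrauma, 101.4 (98.6 to 104) at d5 post-fracture and 159 (157 to 161) at d5 post-polytrauma. Its order ran opposite to that of Has1 at both ends, with the lowest level at d0 and the highest at d5 post-polytrauma, and the intervals of the d3 pair overlapped. Has2 was 2.42-fold higher at d3 post-fracture than at d0 (2.23 to 2.63) and 2.39-fold higher at d3 post-polytrauma (2.20 to 2.60). Between d3 and d5 post-polytrauma it was 1.92-fold higher, and between d3 and d5 post-fracture 1.21-fold, the latter a sign that turned relative to the median of all genes. The remaining synthase, Has3, was at 0.287 CPM or lower in each library.

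**Figure D1:**
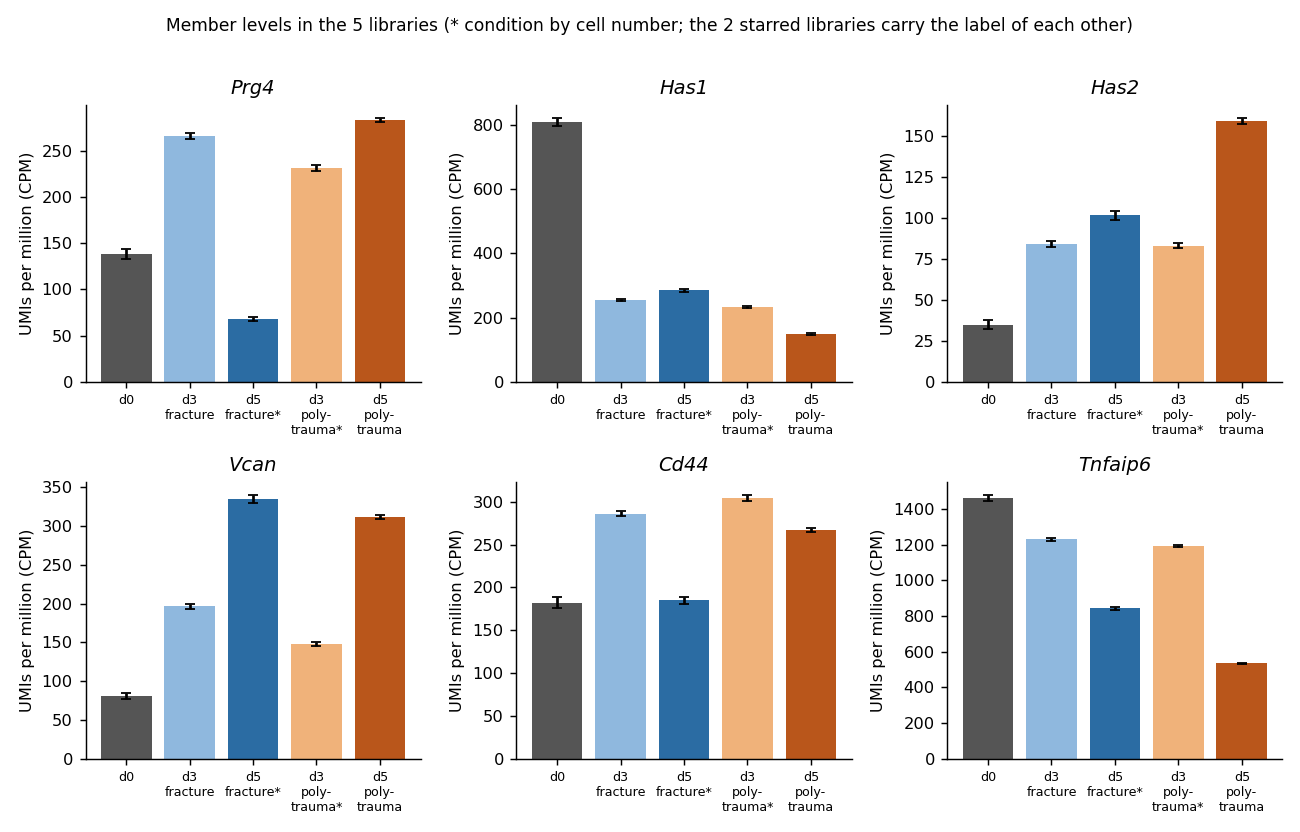
Level of each of the 6 genes (CPM, axes from 0) in the 5 libraries, 1 bar per library, with error bars for 95% Poisson intervals that cover counting error only and stars on the libraries with conflicting labels. As CPM, Has1 and Tnfaip6 stood highest at d0 (for Tnfaip6 the order of d0 and d3 turned relative to the median of all genes), Has2 and Vcan lowest at d0, and Prg4 lowest at d5 post-fracture.

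Set against each other, the synthases changed places. The number of Has1 UMIs per Has2 UMI was 23.3 at d0 (21.5 to 25.3), 3.04 at d3 post-fracture, 2.81 at d3 post-polytrauma, 2.82 at d5 post-fracture and 0.936 at d5 post-polytrauma (0.922 to 0.951). Only d5 post-polytrauma lay below 1, and 2.81 and 2.82 had overlapping intervals. This ratio does not depend on the scaling of a library, since both genes were counted in the same cells.

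The same shift was seen in single cells. To compare depths, each cell with at least 2000 UMIs was thinned to 2000 randomly drawn UMIs, which left out 30 to 744 shallower cells per library. Among thinned cells with either synthase, those with Has1 alone made up 85.7% at d0, 68.2% at d3 post-fracture, 64.4% at d3 post-polytrauma, 55.3% at d5 post-fracture and 39.9% at d5 post-polytrauma. Cells with Has2 alone made up 4.27%, 20.1%, 21.5%, 30.0% and 44.6% in the same order. Cells with either gene were 42.2%, 42.8%, 42.8%, 35.5% and 37.1% of all thinned cells, a narrower range than that of each synthase alone.

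**Figure D2:**
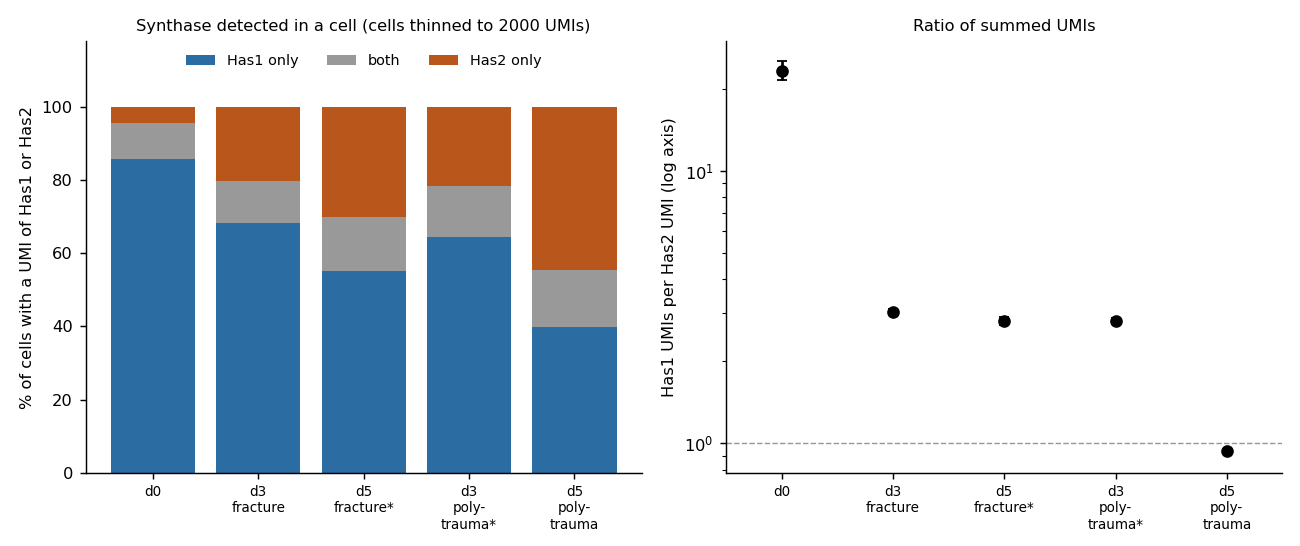
Makeup of thinned cells with a UMI of either synthase (left, percent, stacked bars from 0) and Has1 UMIs per Has2 UMI (right, log axis, bars for 95% counting intervals, dashed line at 1) in the 5 libraries, with stars on those with conflicting labels. The ratio was 23.3 at d0 and 0.936 at d5 post-polytrauma, where cells with Has2 alone (44.6%) outnumbered those with Has1 alone (39.9%).

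Vcan, the versican core protein, was at 80.7 CPM (76.5 to 85.0) at d0, 196 (194 to 199) at d3 post-fracture, 148 (146 to 150) at d3 post-polytrauma, 335 (330 to 340) at d5 post-fracture and 312 (309 to 314) at d5 post-polytrauma. All 4 injured libraries stood above d0. Both d5 libraries stood above both d3 libraries, an order that does not hold as labelled, where d5 post-fracture (148) lies below both d3 libraries. Vcan was 2.43-fold higher at d3 post-fracture than at d0 (2.31 to 2.57) and 1.83-fold higher at d3 post-polytrauma. Between d3 and d5 it was 1.71-fold higher post-fracture and 2.11-fold higher post-polytrauma (2.07 to 2.15). At d5 it was 0.930 times as high post-polytrauma as post-fracture, and without any barcode found in 2 libraries the sign of this log2 ratio turned, from -0.10 to 0.10.

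Tnfaip6 was the most abundant of the 6 genes in each library, at 1462 CPM (1444 to 1480) at d0, 1230 (1223 to 1237) at d3 post-fracture, 1193 (1186 to 1199) at d3 post-polytrauma, 843 (835 to 851) at d5 post-fracture and 535 (532 to 539) at d5 post-polytrauma. No pair of intervals overlapped, and d5 post-polytrauma was 2.23-fold lower than d3 post-polytrauma (2.21 to 2.25). Its lower level at d3 than at d0 did not hold relative to the median of all genes, where it turned sign. Tnfaip6 ranked 107 among 18198 detected genes at d0 and 270 among 20947 at d5 post-polytrauma. Tnfaip6 UMIs per Vcan UMI were 18.1 at d0, 6.26 at d3 post-fracture, 8.07 at d3 post-polytrauma, 2.51 at d5 post-fracture and 1.72 at d5 post-polytrauma. The UMI counts of Tnfaip6 and Vcan were thus nearer to equal in both d5 libraries than at d3, but as labelled d5 post-fracture (8.07) lies above both d3 libraries (6.26 and 2.51). These are counts of transcripts, and the proteins were not measured.

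Cd44, the receptor, was at 182 CPM (176 to 189) at d0, 286 (283 to 290) at d3 post-fracture, 305 (301 to 308) at d3 post-polytrauma, 185 (181 to 189) at d5 post-fracture and 267 (264 to 269) at d5 post-polytrauma. It spanned the narrowest range of the 6 genes, and the intervals of d0 and d5 post-fracture overlapped. Cd44 was 1.57-fold higher at d3 post-fracture and 1.67-fold higher at d3 post-polytrauma than at d0. Without any barcode found in 2 libraries, the log2 ratio of d5 over d3 post-fracture was -1.01 instead of -0.63, which took it past 2-fold.

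The 6 comparisons were read against all genes with at least 20 UMIs in the pair of libraries, and a gene was called where its CPM ratio was 2-fold or more. At d3 post-fracture against d0, Has2 and Vcan were called higher, where 13.4% of 14610 genes were, and Has1 was called lower, as were 33.5%. At d3 post-polytrauma against d0, Has2 was called higher (13.7% of 14809 genes) and Has1 lower (32.5%). At d5 against d3 post-fracture, none was called higher against 40.3% of 15115 genes, and Prg4 was called lower against 5.45%. At d5 against d3 post-polytrauma, Vcan was called higher (28.8% of 16093 genes) and Tnfaip6 lower (7.49%). At d3, none was called between post-polytrauma and post-fracture, where 5.45% of 15038 genes were higher and 3.14% lower. At d5, Prg4 was called higher post-polytrauma than post-fracture, where 3.74% of 15979 genes were higher, and none was called lower against 14.7%. These comparisons share libraries, and the members were picked with these values known, so nothing is read from the counts.

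Across all genes tested, the middle log2 ratio was not at 0. This median was -0.46 for d3 post-fracture and -0.45 for d3 post-polytrauma against d0, 0.73 for d5 against d3 post-fracture, 0.48 for d5 against d3 post-polytrauma, -0.01 between the d3 libraries and -0.13 between the d5 libraries. Relative to that median, Prg4, Has2, Vcan and Cd44 were past 2-fold higher and Has1 past 2-fold lower in both d3 libraries against d0. The shares of all genes were 21.3% higher and 23.2% lower post-fracture, and 21.3% and 22.6% post-polytrauma. Prg4, Cd44 and Tnfaip6 were past 2-fold lower at d5 than at d3 post-fracture (19.3% of genes lower, 19% higher). Has1 and Tnfaip6 were past 2-fold lower at d5 than at d3 post-polytrauma (13.4% lower, 15.5% higher). Between the d3 libraries none was (5.55% higher, 3.05% lower), and between the d5 libraries Prg4 was higher (4.75% higher, 12.5% lower). Against the median, the sign turned for Tnfaip6 in both d3 comparisons with d0, for Has1 and Has2 at d5 against d3 post-fracture, for Prg4 at d5 against d3 post-polytrauma, and for Vcan between the d5 libraries.

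With the conditions as deposited, the library labelled d3 post-polytrauma stood against d0 with Has2 2.92-fold and Vcan 4.16-fold higher, and with Has1 2.83-fold and Prg4 2.03-fold lower. In that comparison 23.8% of all genes were called higher and 15.8% lower. Has1 was thus below d0, and Has2 and Vcan above it, under both readings, whereas Prg4 was above d0 at d3 post-polytrauma under one reading and below it under the other. Of the 30 ratios that involve an exchanged library, 13 changed sign, Prg4 at d3 post-polytrauma against d0 among them. Between d3 and d5 post-fracture these were Has1 (log2 ratio 0.16 by cell number, -0.13 as labelled), Has2 (0.27, -0.02), Vcan (0.77, -0.41) and Cd44 (-0.63, 0.09). Between d3 and d5 post-polytrauma they were Vcan (1.08, -0.10) and Cd44 (-0.19, 0.53). Between injuries at d3 they were Has1 (-0.13, 0.16), Has2 (-0.02, 0.27), Vcan (-0.41, 0.77) and Cd44 (0.09, -0.63), and at d5 Vcan (-0.10, 1.08) and Cd44 (0.53, -0.19).

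**Figure D3:**
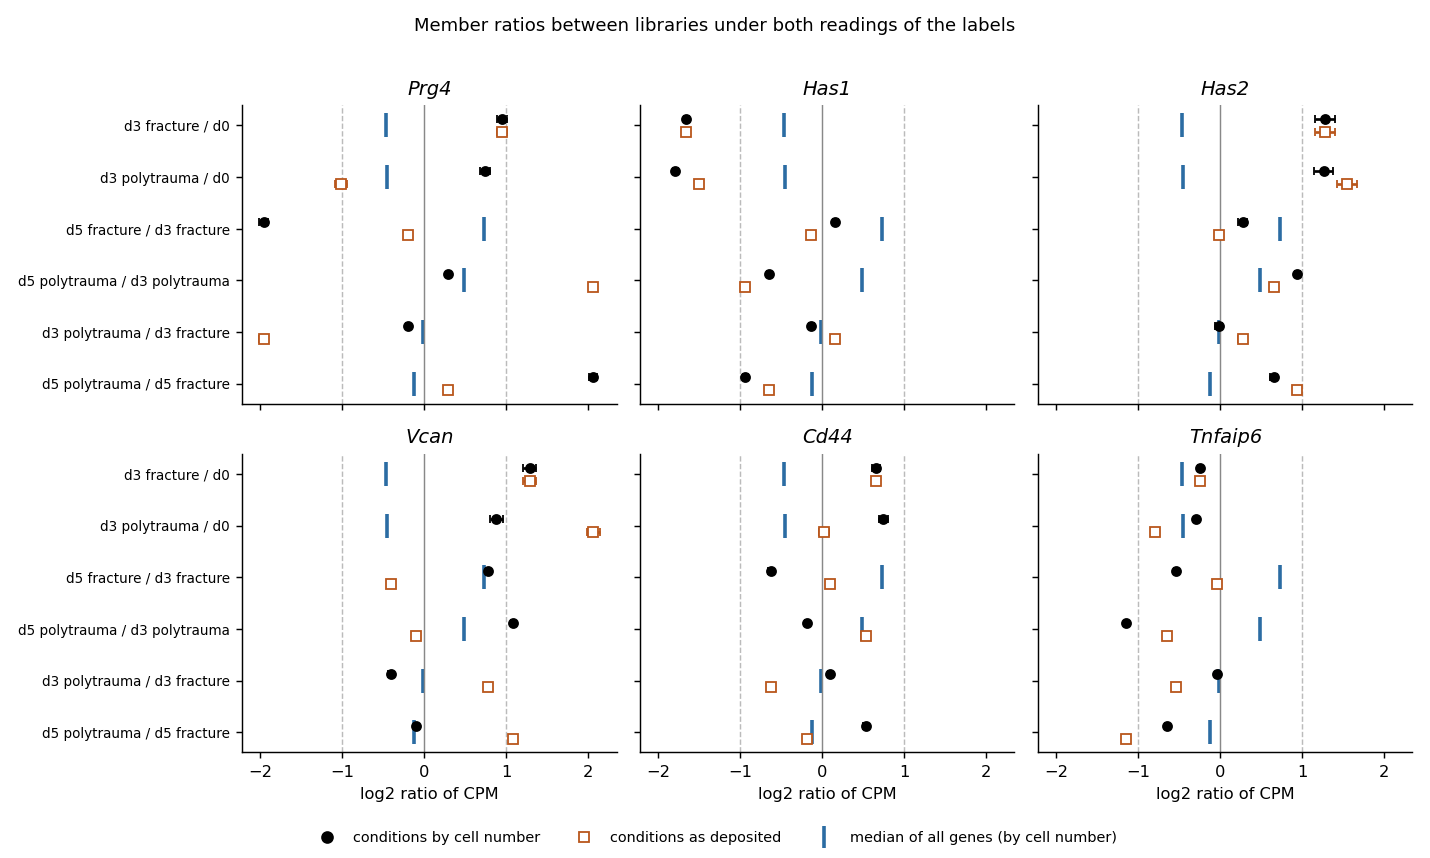
Log2 ratio of CPM of each of the 6 genes in the 6 comparisons, with conditions by cell number (black circles) and as deposited (open squares), 95% counting intervals, dashed lines at a 2-fold difference and a blue mark at the median of all genes. With conditions by cell number, Prg4 at d5 post-fracture against d3 lay at -1.96, and Prg4 at d5 post-polytrauma against post-fracture at 2.05.

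Counted over thinned cells, the share with at least 1 Prg4 UMI was 12.9% (11.9 to 14.0) at d0, 29.9% at d3 post-fracture, 22.7% at d3 post-polytrauma, 8.48% (7.10 to 10.1) at d5 post-fracture and 21.1% (20.4 to 21.9) at d5 post-polytrauma. Without thinning the shares were 16.97%, 69.4%, 57.3%, 37.9% and 47.7%. Free RNA can give a UMI in a cell that does not express a gene, so the same share was taken in cells of the pericyte-like clusters, a comparison population chosen after seeing the data. There it was 1.29% of 697 cells at d0, 4.90% of 102 at d3 post-fracture, 1.92% of 52 at d3 post-polytrauma, 0 of 38 at d5 post-fracture (interval up to 9.25%) and 5.62% of 89 at d5 post-polytrauma, below the share in all cells in each library. In hematopoietic-like cells Prg4 was found in 6.25% of 16 cells at d3 post-fracture and 4.05% of 74 at d3 post-polytrauma. At d5 post-polytrauma it was found in 15.6% of 90 (8.77 to 24.7), an interval that holds the 21.1% of all cells, and these cells had 341 CPM of Prg4. Before thinning the pericyte-like cells had medians of 4446, 4821, 5744, 15561 and 9438 UMIs, against 3948, 18388, 15803, 35428 and 16139 in all thinned cells, and the hematopoietic-like cells had 4583, 4028 and 8303.

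Prg4 was unevenly spread among cells. The 5% of thinned cells with the most Prg4 held 67.3% of its UMIs at d0, 41.3% at d3 post-fracture, 55.6% at d3 post-polytrauma, 73.3% at d5 post-fracture and 58.1% at d5 post-polytrauma. Cells with 5 or more Prg4 UMIs after thinning were 37 at d0 (0.952%), 82 at d3 post-fracture (1.53%), 145 at d3 post-polytrauma (2.37%), 2 at d5 post-fracture (0.139%) and 287 of 11517 at d5 post-polytrauma (2.49%), where the highest cell held 37. The variance of Prg4 UMIs per cell was 2.64 to 5.50 times the mean, against 1.10 to 1.49 for Vcan and 2.84 to 8.90 for Tnfaip6. Tnfaip6 exceeded Prg4 at d0 (8.90 against 2.91), d3 post-fracture (3.68 against 2.64) and d5 post-fracture (2.84 against 2.73). Has1 exceeded it at d0 (5.71) and d5 post-fracture (3.18), and lay below it in the other libraries. For Has2 at d0 the top 5% of cells held 85.8% of UMIs, so an uneven spread was not particular to Prg4.

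Has1 was detected in 40.4% of thinned cells at d0, 34.2% at d3 post-fracture, 33.6% at d3 post-polytrauma, 24.8% at d5 post-fracture and 20.5% at d5 post-polytrauma. The order differed from that of the CPM, which was higher at d5 post-fracture than in both d3 libraries while the share was lower there, so no order is read from these shares. Cells with 5 or more Has1 UMIs were 11.5% at d0 and 0.858%, 0.572%, 2.99% and 0.174% in the other libraries in that order. Has2 was detected in 6.02%, 13.6%, 15.2%, 15.9% and 22.3% of thinned cells. Vcan was detected in 13.3%, 31.4%, 24.6%, 41.0% and 41.4%, Cd44 in 22.3%, 41.4%, 45.7%, 24.5% and 35.5%, and Tnfaip6 in 61.2%, 73.6%, 71.8%, 56.3% and 44.6%. Tnfaip6 was thus found in more cells at d3 than at d0 while its CPM was lower there.

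In pericyte-like cells the shares were 0% to 17.4% for Has1, 0.574% to 8.99% for Has2, 1.58% to 6.74% for Vcan and 5.17% to 32.7% for Cd44, each below the share in all thinned cells of its library. The nearest was Cd44 at d5 post-polytrauma, at 32.6% against 35.5%. Tnfaip6 was found in 36.2% of pericyte-like cells at d0, 53.9% at d3 post-fracture, 55.8% at d3 post-polytrauma, 18.4% at d5 post-fracture and 26.97% at d5 post-polytrauma, and whether these UMIs came from free RNA or from the cells themselves was not tested. Hematopoietic-like cells, present as clusters in 3 libraries, held Cd44 in 56.3% of 16 cells at d3 post-fracture, 56.8% of 74 at d3 post-polytrauma and 28.9% of 90 at d5 post-polytrauma.

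Within each library, cells were clustered without the 6 genes and without the marker genes. Clusters were named from fixed markers where at least 3 of a type were met and that type stood out from the others. An unnamed cluster can thus still meet markers. At d3 post-polytrauma an unnamed cluster of 1506 cells met 4 FAP/MP markers, and another of 46 cells met 4 myogenic markers. Over the clusters of d0, Has1 reached 2154 CPM in a FAP/MP-like cluster led by Mrgprg, Cmah and Smpd3, which held 46.7% of Has1 UMIs in 16.7% of cells. The same cluster had the highest level of Tnfaip6 (3320 CPM), Cd44 (360) and Has2 (75.9) at d0. The pericyte-like cluster had 165 CPM of Has1, 381 of Tnfaip6, 35.1 of Cd44 and 2.79 of Has2. This shared peak did not hold at another clustering resolution (0.8), whose clusters were not named. There, Has1 was highest at d0 in a cluster of 569 cells (2302 CPM). Tnfaip6 (5747 CPM), Cd44 (411) and Has2 (115) were highest in a different cluster, of 276 cells. The 6 FAP/MP-like clusters of d0 together held 94.0% of Has1, 97.2% of Has2, 95.6% of Vcan, 89.4% of Cd44 and 91.8% of Tnfaip6 UMIs in 73.4% of cells, but only 65.6% of Prg4 UMIs.

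By CPM, Prg4 peaked in other clusters. At d0 its highest cluster was tenocyte-like, led by Wif1, Matn3 and Col11a2, at 444 CPM with 21.9% of Prg4 UMIs in 5.42% of cells. After thinning, 32.3% of osteoblast-like cells of d0 held Prg4, against 31.9% of tenocyte-like cells. The highest Prg4 cluster was also tenocyte-like at d3 post-fracture (1083 CPM, 157 cells), at d3 post-polytrauma (1139 CPM, 369 cells) and at d5 post-polytrauma (1170 CPM, 500 cells, led by Kera, Lcn2 and Tnmd). That last cluster held 16.7% of Prg4 UMIs in 4.19% of cells, and a fibroblast-like cluster led by Anxa8 and Bmp2 followed at 667 CPM. The tenocyte-like clusters of d3 held 6.99% of Prg4 UMIs post-fracture and 22.3% post-polytrauma. Most Prg4 UMIs of these libraries lay in unnamed clusters. They held 63.6% in 55.5% of cells at d3 post-fracture, 67.6% in 72.8% at d3 post-polytrauma and 51.7% in 53.1% at d5 post-polytrauma. At d5 post-fracture the tenocyte-like clusters were at 77.4 and 27.3 CPM, and the highest cluster, at 194 CPM, was fibroblast-like, with Kcnn4 and Ereg among its leading genes. The tenocyte-like cluster at 77.4 CPM, led by Cilp2, Lyz2 and Ctsc, met 4 tenocyte and 3 chondrocyte markers. That at 27.3 CPM, led by Adamts16 and Scube2, met 3 tenocyte markers. Neither had Kera or Tnmd among its leading genes, unlike the tenocyte-like clusters of d3 and of d5 post-polytrauma, but those of d0 had neither gene there as well. The leading genes of the cluster at 77.4 CPM include the tenocyte marker Scx, and Cilp2 is shared with the d0 cluster at 444 CPM. Whether the tenocyte-like clusters of different libraries hold the same cells was not tested. The tenocyte markers summed to 560 CPM at d5 post-fracture and 612 at d5 post-polytrauma, against 204 and 245 in the d3 libraries and 1136 at d0, and their part in the difference in Prg4 was not tested.

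**Figure D4:**
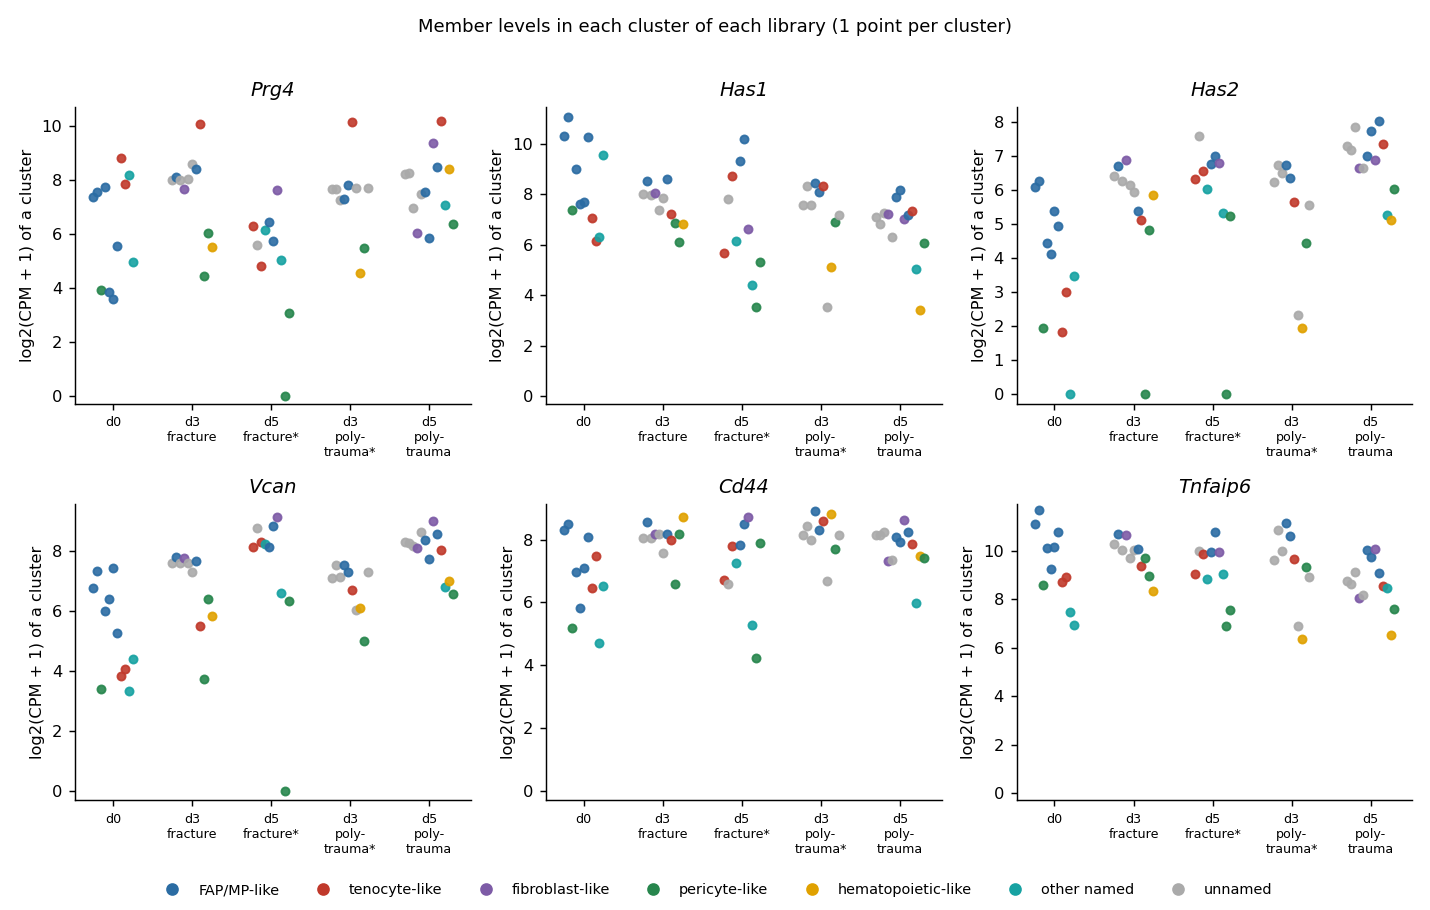
Level of the 6 genes, as log2(CPM + 1), in each cluster of each library, 1 point per cluster, coloured by the name of the cluster, with stars on the libraries with conflicting labels. At this resolution (0.5), tenocyte-like clusters had the highest Prg4 in 4 libraries and a FAP/MP-like cluster the highest Has1 in all 5, but at 0.8 the same cluster of d5 post-polytrauma had the highest Has1 and Prg4. The tenocyte-like cluster of d5 post-polytrauma also met all 5 FAP/MP markers.

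At the resolution of 0.5 at which clusters were named, Has1 was highest in a FAP/MP-like cluster in all 5 libraries. At 0.8, the highest Has1 cluster of d5 post-polytrauma (291 CPM, 184 cells) was another, which also had the highest Prg4 (1486 CPM). At 0.5 the Has1 level of the FAP/MP-like cluster was 383 CPM at d3 post-fracture, 352 at d3 post-polytrauma, 1176 at d5 post-fracture (led by Dpp4 and Pi16, with 32.7% of Has1 UMIs) and 287 at d5 post-polytrauma (led by Penk, Cxcl9 and Bmp4). At d3 post-polytrauma the lead was small, with 319 CPM of Has1 in the tenocyte-like cluster and 317 in the unnamed cluster of 1506 cells. The other FAP/MP-like cluster of that library, at 274 CPM, lay below both. At d5, Has2 peaked in other clusters than Has1. It reached 190 CPM in an unnamed cluster led by Gzmb, Gzme and Nppc at d5 post-fracture, and 261 CPM in a FAP/MP-like cluster led by Krt19 and Nos2 at d5 post-polytrauma. Vcan was highest in fibroblast-like clusters at d5, at 557 CPM post-fracture and 513 post-polytrauma, and these also had the highest Cd44 (418 and 397 CPM). At a resolution of 0.3 the highest clusters of Vcan (411 CPM) and Cd44 (306 CPM) at d5 post-polytrauma were different ones. Different clusters hold these cells in different libraries, so their levels are given within libraries and were not compared between them. The FAP/MP markers moved between libraries as well, from 2332 CPM at d0 to 933 at d3 post-fracture, 1591 at d3 post-polytrauma, 1491 at d5 post-fracture and 1031 at d5 post-polytrauma, and their part in the levels of Has1 and Tnfaip6 was not tested. Pericyte markers summed to 3641 CPM at d0 and to 317 to 1328 in the injured libraries.

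Pairs of the 6 genes were detected together in thinned cells more or less often than the product of their shares. For Has1 and Tnfaip6 the observed count was 1.25, 1.10, 1.13, 1.35 and 1.31 times the product at d0, d3 post-fracture, d3 post-polytrauma, d5 post-fracture and d5 post-polytrauma. For Has1 and Has2 it was 1.74, 1.08, 1.18, 1.33 and 1.26 times, so cells with one synthase held the other more often than the product in each library. For Prg4 and Has2 the ratios were 1.33, 0.888, 0.937, 1.03 and 0.953, and for Prg4 and Tnfaip6 1.02, 1.01, 0.996, 0.947 and 1.09, the latter close to 1. In the same order, Prg4 and Has1 were at 1.28, 1.11, 1.10, 1.02 and 1.10, and Prg4 and Cd44 at 1.47, 1.035, 1.02, 1.205 and 1.075. Both of these pairs lay above 1 in each library. Prg4 and Vcan were at 0.961, 1.04, 1.10, 0.92 and 1.11. Cells of 1 library are not replicates, and these ratios are a description.

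Over the cells of the library with the most UMIs of each gene, the most similar genes were found by Pearson r of log(1 + UMIs per 10000), among 10163 genes in 11941 cells at d5 post-polytrauma, or, for Tnfaip6, among 9217 genes in 6201 cells at d3 post-polytrauma. These cells share 1 library and differ in depth. The genes most like Prg4 included Timp1 (0.40), Thbs4 (0.37), S100a4 (0.30) and Angptl2 (0.29), and its r with the other members was 0.01 to 0.12. Has1 was most like Cxcl1 (0.32), Tnfaip6 (0.32), Cebpb (0.31), Mt2 (0.30) and Ugdh (0.30), the last of which makes UDP-glucuronic acid, a building block of hyaluronan. Has2 was most like Sgk1 (0.35), Cxcl5 (0.30), Nfkb1 (0.29), Phlda1 (0.29) and Il1rl1 (0.29). Cd44 shared Sgk1 (0.36), Il1rl1 (0.32) and Nfkb1 (0.31) with that list, beside Lmna (0.32) and Tnfaip6 (0.31). Vcan was most like matrix genes, Fbln2 (0.27), Loxl2 (0.27), Col5a3 (0.26), Lox (0.24) and Col5a1 (0.24). Tnfaip6 was most like Hk2 (0.44), Uap1 (0.42), Mt2 (0.42), Nfkb1 (0.41) and Ptx3 (0.40), of which Uap1 makes the other sugar nucleotide of hyaluronan and Ptx3 is a pentraxin that binds TSG-6.

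The hyaluronan pathway was read from lists of precursor enzymes, matrix partners, receptors, degradation enzymes, versican proteases and CD44 linkers and sheddases, beside the synthases above. The lists are not separate from the members. Vcan and Tnfaip6 count among the matrix partners and Cd44 among the receptors. By cell number, Vcan is thus among the matrix partners higher at d3 post-fracture against d0 and at d5 against d3 post-polytrauma. In the latter comparison Tnfaip6 is the 1 lower. Of the precursor enzymes, 1 of 7 tested was past 2-fold higher and 4 lower at d3 post-fracture against d0, and 0 higher and 2 lower at d3 post-polytrauma, beside 33.5% and 32.5% of all genes lower. Uap1 was 3.71-fold lower post-fracture and 2.26-fold lower post-polytrauma, and Ugp2, which makes UDP-glucose, 2.92-fold and 2.94-fold lower. Ugdh was at 779 CPM at d0, 332 at d3 post-fracture, 421 at d3 post-polytrauma, 365 at d5 post-fracture and 235 at d5 post-polytrauma, so like Has1 it stood highest at d0 and lowest at d5 post-polytrauma. Gfpt2, which feeds the hexosamine branch, was 2.86-fold higher at d3 post-polytrauma than at d3 post-fracture. As labelled, that Gfpt2 ratio is d5 over d3 post-fracture. At d3 post-polytrauma against d0, 1 of 7 precursor enzymes was then higher and 3 lower, beside 23.8% and 15.8% of all genes.

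Of the 6 versican proteases, 0 were higher and 5 lower at d3 post-fracture against d0, with a list median log2 ratio of -2.13 beside -0.46 for all genes. At d3 post-polytrauma 0 were higher and 6 lower, with a median of -1.98 beside -0.45. Of all genes, 33.5% and 32.5% were lower in these comparisons, and relative to the median 4 and 6 of the proteases were. Adamts4 was 7.80-fold and 8.56-fold lower, Adamts9 6.57-fold and 4.40-fold lower, Adamts5 2.93-fold and 3.31-fold lower and Adamts1 2.74-fold and 3.54-fold lower. Vcan, their substrate, was 2.43-fold and 1.83-fold higher, the latter short of 2-fold, and whether these levels are related was not tested. At d5 against d3 post-fracture 5 of 6 were higher and 0 lower, beside 40.3% of all genes higher, and relative to the median 1 of 6 was. The 5 include Adamts9 (2.73-fold), Adamts4 (2.11-fold) and Adamts1 (2.07-fold), and Vcan was 1.71-fold higher in that comparison. Post-polytrauma, 1 of 6 was higher at d5 than at d3 and 0 lower, beside 28.8% of all genes higher. As labelled, 0 of 6 were higher and 0 lower at d5 against d3 post-fracture. Post-polytrauma 0 were then higher and 2 lower at d5 against d3, beside 14.7% of all genes lower. At d3 post-polytrauma against d0, 0 were then higher and 3 lower, beside 15.8% of all genes lower.

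Of the matrix partners, 4 of 11 tested were higher and 5 lower at d3 post-fracture against d0, and 0 of 9 higher and 4 lower at d3 post-polytrauma, beside 13.4% and 13.7% of all genes higher and 33.5% and 32.5% lower. As labelled, 6 of 12 were higher and 3 lower at d3 post-polytrauma, beside 23.8% and 15.8% of all genes. Itih5, a heavy chain of the inter-alpha-inhibitor family, was 58.0-fold lower post-fracture and 48.4-fold lower post-polytrauma. At d5 against d3 post-fracture 8 of 13 were higher and 0 lower, and post-polytrauma 6 of 11 were higher and 1 lower, beside 40.3% and 28.8% of all genes higher. Relative to the median these counts were 6 higher and 2 lower post-fracture, and 4 higher and 2 lower post-polytrauma. The cartilage proteoglycan Acan was 22.1-fold and 16.8-fold higher, and the link protein Hapln1 was at 205 CPM at d5 post-fracture against 0.170 CPM, from 17 UMIs, at d3. The chondrocyte markers, which include cartilage matrix genes, summed to 3729 CPM at d5 post-fracture and 132 to 479 in the other libraries, and their part in the matrix partners was not tested. Of the 193 chondrocyte-like cells at d5 post-polytrauma, 46.1% had shared barcodes (found in another library, and not 10-fold deeper than there). In all retained cells of that library the share was 2.83%. Whether cartilage RNA counted there came from the d5 post-fracture library was not tested. Between the d5 libraries 0 of 13 matrix partners were higher and 7 lower post-polytrauma, beside 3.74% of all genes higher and 14.7% lower. Hapln1 was 14.3-fold, Itih5 9.32-fold and Acan 8.37-fold lower. Between the d3 libraries 0 of 11 were higher and 4 lower post-polytrauma, beside 5.45% of all genes higher and 3.14% lower, and Acan was 6.35-fold lower. As labelled, these counts stand for other comparisons, beside the same shares of all genes. At d5 against d3, 0 of 11 were then higher and 4 lower post-fracture, and 0 of 13 higher and 7 lower post-polytrauma. Post-polytrauma against post-fracture, 8 of 13 were higher and 0 lower at d3, and 6 of 11 higher and 1 lower at d5. Acan was then 6.35-fold lower at d5 than at d3 post-fracture, and 16.8-fold higher at d5 post-polytrauma than post-fracture.

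Of the receptors, Layn (layilin) was 4.13-fold higher at d3 post-fracture and 5.51-fold higher at d3 post-polytrauma than at d0, where Cd44 was 1.57-fold and 1.67-fold higher. Counting all receptors tested, 2 of 5 were higher and 1 lower post-fracture, and 2 of 4 higher and 0 lower post-polytrauma, beside 13.4% and 13.7% of all genes higher. Hmmr, which is also a gene of dividing cells, was 2.40-fold higher at d5 than at d3 post-polytrauma, where markers of dividing cells summed to 339 CPM at d3 and 529 CPM at d5. Of the 5 CD44 linkers and sheddases, none was past 2-fold in either d3 comparison with d0, and 2 were higher in each d5 comparison with d3, beside 40.3% of all genes post-fracture and 28.8% post-polytrauma. Relative to the median, 1 of 5 was higher post-fracture and 2 post-polytrauma. The 2 genes past 2-fold by CPM were Mmp14, a protease that sheds CD44 (4.32-fold post-fracture and 3.19-fold post-polytrauma), and Rdx, the radixin that links CD44 to actin (3.16-fold and 3.32-fold). Of the degradation enzymes (hyaluronidases and their partners), 2 of 5 tested were higher and 2 lower at d3 post-fracture against d0, and 1 higher and 2 lower at d3 post-polytrauma, beside 13.4% and 13.7% of all genes higher and 33.5% and 32.5% lower. At d5 against d3, 1 of 5 was higher and 0 lower post-fracture (0 of 5 relative to the median), and none was past 2-fold post-polytrauma, beside 40.3% and 28.8% of all genes higher. As labelled, 2 of 5 linkers and sheddases and 3 of 5 degradation enzymes were higher at d3 post-polytrauma against d0, beside 23.8% of all genes. No linker or sheddase was then past 2-fold at d5 against d3 after either injury. For degradation enzymes that comparison gave 0 past 2-fold post-fracture, and 0 higher and 1 lower post-polytrauma.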

How the data were processed

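Each of the 5 libraries was deposited by the authors as a matrix of raw UMI counts per gene and cell barcode, without normalization. Reads had been aligned to mm10 and counted with Cell Ranger (3.1.0 in the matrix header), and the submitters' processing notes also name Seurat 3.1.2. The lowest number of barcodes was 2001 and the highest 13641, with 482990194 UMIs in all.

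Barcodes with 350 to 8000 genes, under 20% mitochondrial UMIs and at least 1000 UMIs were retained. Possible doublets were kept, and the highest Scrublet scores, at 0.8% per 1000 cells, were left out as an alternative. UMIs were summed per library and given as CPM with exact Poisson 95% intervals, and ratios with exact conditional intervals, for genes with at least 20 UMIs in the pair of libraries. Shares of cells have exact (Clopper-Pearson) binomial intervals after thinning to 2000 UMIs. Clusters were computed per library in Seurat 5.3.0 (R 4.3.3) from 2000 variable genes without the members and markers, 20 components and a resolution of 0.5. A cluster was named from at least 3 markers detected in at least 10% of its cells. Pathway genes are named where they pass 2-fold and reach 20 CPM in 1 of the libraries compared, up to 4 per list. The most similar genes are the 5 with the highest r among those in at least 5% of cells. A gene of these lists and a leading gene of a cluster are not reported here.

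The conditions of 2 libraries follow the study's cell numbers and not the labels, and both readings were computed. The members, lists and comparisons were chosen with earlier results of these data known. Alternatives were another scaling, other thresholds, thinning, each cell scaled to its own total, no UMI minimum, no filter on low counts, and leaving out shared barcodes, doublet candidates or cells with hematopoietic markers. Calls were tested on simulated data with known changes. Python 3.11.15 was used with numpy 2.4.6, scipy 1.17.1, pandas 2.3.3, scanpy 1.11.5 and matplotlib 3.10.9, and positions came from GENCODE M21.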

Additional observations from a re-analysis of the deposited data

Results flagged for a closer look

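For Prg4 and Has1 the d5 and d3 libraries differed in opposite directions after the 2 kinds of injury. The log2 ratio of Prg4 at d5 over d3 was -1.961 post-fracture and 0.2911 post-polytrauma, and that of Has1 was 0.1592 post-fracture and -0.6469 post-polytrauma. Each value comes from 1 library against 1 other, so the difference between the injuries was not tested. Both post-fracture values rest on the d5 library with conflicting labels. As labelled, the d5 over d3 values of Prg4 are -0.20 post-fracture and 2.05 post-polytrauma, and those of Has1 are -0.13 and -0.94, so Has1 then has the same sign in both. Without any barcode found in 2 libraries, Has1 at d5 over d3 post-fracture was -0.37. Relative to the median of all genes, Prg4 was at -2.69 and -0.19 and Has1 at -0.57 and -1.13, so neither gene then differed in sign.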

How the results depend on the processing

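Each library stands for 1 condition, so these alternatives show the effect of processing and not of mice. With conditions as deposited, the log2 ratio of Vcan at d5 over d3 post-polytrauma reversed to -0.1048. Members past 2-fold were then 2 higher and 2 lower at d3 post-polytrauma over d0, 0 lower in both d5 over d3 comparisons, and 1 lower post-polytrauma than post-fracture on each day. All genes past 2-fold were then 3498 higher and 2315 lower (d3 post-polytrauma over d0), 820 and 472 (d5 over d3 post-fracture), 598 and 2343 (d5 over d3 post-polytrauma), 6098 and 824 (d3 post-polytrauma over post-fracture), and 4640 and 1205 (the same at d5), the counts of the exchanged libraries. Median-of-ratios scaling gave 4 members higher in both d3 over d0 comparisons, 3 lower at d5 over d3 post-fracture, and 0 higher and 2 lower at d5 over d3 post-polytrauma. For all genes it gave 3115 and 3161 higher at d3 over d0, 2878 higher and 2923 lower at d5 over d3 post-fracture, and 2501 higher and 2153 lower at d5 over d3 post-polytrauma. For pathway genes it gave 10 higher at d3 post-polytrauma over d0, 8 higher and 7 lower at d5 over d3 post-fracture, and 6 lower at d5 over d3 post-polytrauma. Without the filter on low counts, higher and lower genes were 4281 and 7867 (d3 post-fracture over d0), 4483 and 7513 (d3 post-polytrauma over d0), 7061 and 2786 (d5 over d3 post-polytrauma), 2857 and 2256 (between d3 libraries) and 2634 and 4698 (between d5 libraries), with 2490 lower at d5 over d3 post-fracture. A 1.5-fold threshold called 4 members higher in both d3 over d0 comparisons, 1 higher and 2 lower at d5 over d3 post-fracture, and 2 higher and 2 lower both at d5 over d3 post-polytrauma and between the d5 libraries. A 4-fold threshold called 0 in the 4 comparisons between days, and Prg4 between the d5 libraries. Shares of all genes past 1.5-fold and 4-fold are not given here, so nothing is read from the counts at these thresholds. Scaling each cell to its own total, and thinning to 2000 UMIs, each called 2 members higher at d3 post-polytrauma over d0. Thinning also called 1 member lower at d5 post-polytrauma than post-fracture, and gave for all genes 3868 higher at d5 over d3 post-fracture, 740 lower at d5 over d3 post-polytrauma, 483 higher between the d3 libraries and 1297 lower between the d5 libraries. Without any barcode found in 2 libraries, an alternative chosen after seeing the data, 2 members were lower at d5 over d3 post-fracture and 903 genes higher between the d5 libraries. That alternative left out 869 of 1468 cells at d5 post-fracture. Except where the alternative is built from other libraries, genes or thresholds, the cause was not tested. Leaving out the UMI minimum, shared barcodes, doublet candidates or cells with 2 hematopoietic markers moved no count of members by over 1.5 times. At another cluster resolution the level of the highest cluster moved beyond its counting interval in 16 (0.3) and 12 (0.8) of 30 cases, and clusters at those resolutions were not named. No paired analysis was possible because each condition has 1 library. The shallow d0 cells limit the detection of Has2, Vcan and Prg4 there.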
